A study of Mus musculus with 15 samples.

Results

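The genes described here encode the subunits and assembly factors of the mouse proteasome, and they were taken as the genes whose symbol begins with Psm, a letter between a and g, and a digit. Of 22180 genes with a probe set of a single symbol, 49 matched, and 47 of these encode proteasome parts or the chaperones that put them together. They fall into 18 genes of the 20S core (7 alpha, 7 constitutive beta, and 4 immuno or thymic beta subunits), 17 of the 19S regulatory particle, 3 chaperones of the 19S base, 5 activators and inhibitors of the core, and 4 chaperones of the core. The other 2 matches share only the symbol: Psmc3ip encodes a partner of the meiotic recombinases, and Psme3ip1 encodes a protein that binds the activator Psme3. Psma5, Psmc2 and Psmg2 each had a second, dimmer probe set, and in these 3 genes neither probe set was called in any comparison. Another 4 probe sets carry a matching symbol together with a second one and were not used, so Psma4 was not analysed here.

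The proteasome is the cell's main machine for breaking down proteins that carry ubiquitin. Its core is a barrel of alpha and beta rings whose cutting sites face inward, and the 19S particle at its ends binds ubiquitin chains, removes them, unfolds the protein with a ring of ATPases and feeds it into the barrel. Immune signals can exchange the constitutive cutting subunits for inducible ones that favour peptides for class I antigen presentation, and blood stem cells are known to depend on controlled protein turnover.

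The samples were mouse LSK cells, a bone marrow fraction rich in stem and early progenitor cells that is sorted for lack of lineage markers and for the surface proteins Sca-1 and Kit. They fall into 3 groups of 5 biological replicates: cells kept for 18 h in MyeloCult M5300 medium with extracellular vesicles (EV) of AFT stromal cells, cells kept for 18 h in that medium without EV, and non-cultured cells taken after sorting. The labels name no strain, age, sex, number of animals per sample or EV dose, so the p-values measure the spread between these samples, and nothing beyond the word biological says that they came from separate animals. RNA of each sample (500 pg) went onto its own Affymetrix Mouse Gene 2.0 array, and all levels below are log2 signals of 1 probe set, which cannot be set against the level of another gene. Differences were tested with limma over all 22180 genes, and a called gene is one whose p, adjusted within its comparison after Benjamini and Hochberg, was under 0.05.

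Median log2 signals of the 15 arrays lay between 4.62 and 4.74, and replicate 1 of the cells with EV had a mean correlation of 0.928 with its group, against 0.943 to 0.947 for its other 4 arrays. Of 10 LSK markers listed, 8 were measured (Ly6a, the gene of Sca-1, was not analysed here), and they averaged 7.67 to 7.85 per array with EV, 7.79 to 7.91 without EV and 7.66 to 8.08 in the non-cultured group. Of these 8, Flt3 was called higher in both cultures (log2 0.65 with EV and 0.63 without EV), Hlf lower with EV (-0.38), and Kit higher (0.39) and Cd48 lower (-0.80) without EV. The 8 genes listed as mature myeloid averaged 8.25 to 8.64 with EV, 8.38 to 8.63 without EV and 6.81 to 7.75 in the non-cultured group. Of the 8, 4 (Lyz2, Csf1r, S100a8 and S100a9) were called higher and 1 (Mpo) lower in each culture against non-cultured cells. Mpo averaged 10.32 in non-cultured cells, so the list does not mark mature cells alone. Within the non-cultured group this mean was 6.81 and 6.91 in replicates 4 and 5, against 7.60 to 7.75 in the other 3 arrays. Replicates 4 and 5 were also the lowest in both cultures, by less. They stood at 8.28 and 8.25 with EV (others 8.56 to 8.64), and at 8.43 and 8.38 without EV (others 8.55 to 8.63). What arrays of the same number share is not stated in the labels. Their correlations and a fit with a replicate block are given in the last section, and the cause of this difference was not tested. Genes listed for B cells (3 measured), T and NK cells (6), erythroid cells (2) and stroma (9) had array means between 3.66 and 5.58 in all groups. Of these 20 only Thy1 was called lower, in both culture comparisons, and Col1a2 higher, with EV against non-cultured cells. Fewer cells of a type and less RNA per cell cannot be told apart in these bulk samples, and the part of the myeloid genes in the results below was not tested.

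After 18 h in culture, core, 19S and activator genes of the proteasome were mostly called lower where they were called, and Psmd7 and Psmd5 were called higher. In cells without EV against non-cultured cells, 11 of 47 members were called lower and 2 higher, where 6.88% of all genes were called lower and 6.75% higher. In cells with EV against non-cultured cells, 15 of 47 were called lower and 1 higher, where 7.85% of all genes were called lower and 6.28% higher. Members called in either direction made up 27.7% without EV and 34% with EV, against 13.6% and 14.1% of all genes. By the mean signal of their probe sets, 45 of 47 members are among the brighter 60% of genes, a rank that does not show expression above background, and of these brighter genes 11.8% were called lower without EV and 13.6% with EV. Both comparisons use the same 5 non-cultured arrays, so they are given side by side and not as support for each other.

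The shifts were modest in size. The median member differed by log2 -0.13 without EV and by -0.18 with EV against non-cultured cells, where the median of all genes was 0.01 and 0.04. These differences are of the deposited values and depend on the normalization. After quantile normalization Psma7, Psmb8 and Psmc3 lost their calls with EV, at log2 -0.22, -0.27 and -0.24, against -0.33, -0.38 and -0.35 as deposited. Members ranged from -0.72 (Psme3) to 0.91 (Psmd5) without EV, and from -0.88 (Psme3) to 0.63 (Psmd5) with EV. Below 0 lay 34 of the 47 without EV (72.3%, against 47.6% of all genes) and 33 of the 47 with EV (70.2%, against 42.2%). Without replicates 4 and 5 of the non-cultured cells, left out after their myeloid level was seen, 11 members were called lower and 2 higher without EV, and 14 lower and 1 higher with EV. This fit kept replicates 4 and 5 of both cultures, so its groups no longer hold the same replicate numbers. That fit no longer called Psmb9 and Psmd5 without EV or Psma7, Psmb9 and Psmc3 with EV, and it newly called Psma8 (higher) and Psma2 (lower) without EV, and Psma2 and Psmd6 (both lower) with EV.

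**Figure D1:**
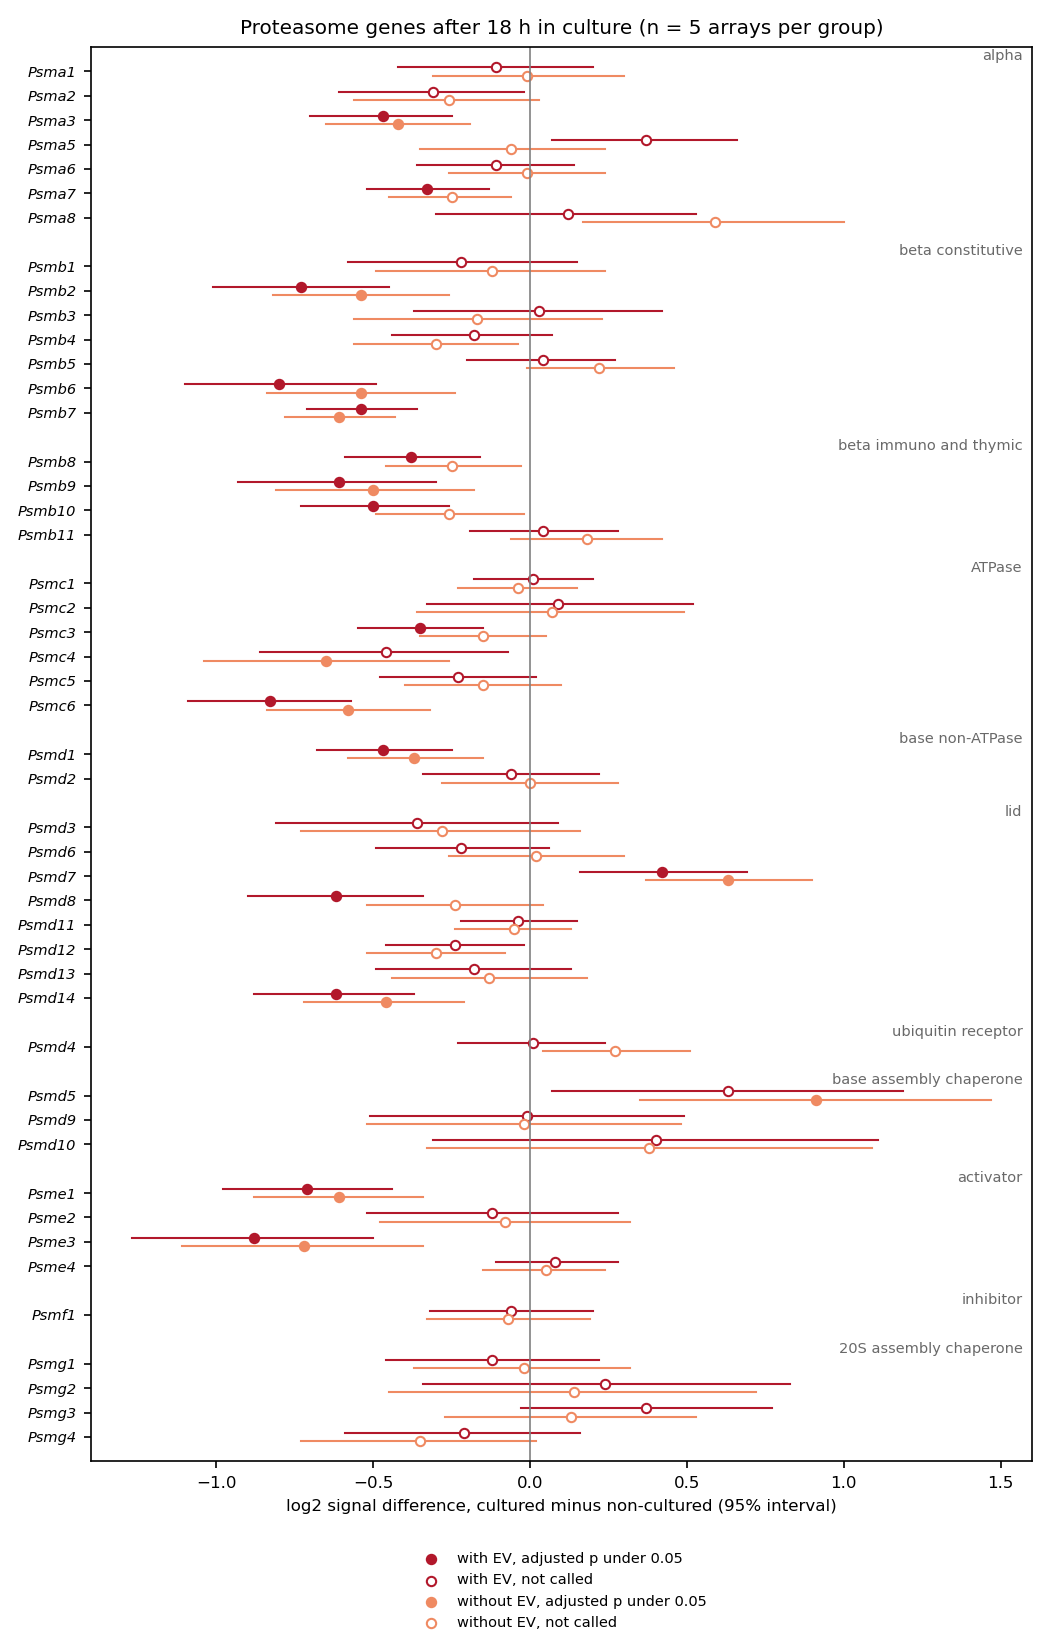
Log2 difference of each of the 47 proteasome genes after 18 h in culture with EV (red) and without EV (orange) against non-cultured cells, with 95% intervals, grouped by role. Filled points were called by limma at adjusted p under 0.05: 15 lower and 1 higher with EV, and 11 lower and 2 higher without EV.

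The alpha subunits build the outer rings and the gate of the barrel. Among the 7 measured, 2 were called lower with EV (28.6%) and 1 without EV (14.3%), and 0 higher. Of all genes, 14.1% and 13.6% were called in either direction. The median difference was log2 -0.11 with EV and -0.06 without EV. Psma3, one of those called lower, had log2 signals of 8.46, 8.86, 8.64, 8.81 and 8.77 with EV, 8.48, 8.71, 8.86, 8.87 and 8.89 without EV, and 9.29, 9.24, 9.33, 9.09 and 8.97 in non-cultured cells. All 10 cultured arrays lay below all 5 non-cultured ones. The difference was log2 -0.47 with EV (standard error, SE, 0.11, limma adjusted p = 0.00638) and -0.42 without EV (SE 0.11, adjusted p = 0.014).

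Psma7 ran from 9.08 to 9.53 with EV and from 9.38 to 9.54 without EV, against 9.60 to 9.83 in non-cultured cells, again without overlap. It was called with EV (log2 -0.33, SE 0.09, limma adjusted p = 0.0233) and not without EV (log2 -0.25, SE 0.09, adjusted p = 0.0832). The call with EV was lost without replicate 5 of the cells with EV (adjusted p = 0.0548), without replicate 1 of the non-cultured cells (adjusted p = 0.0659) and after quantile normalization (log2 -0.22, adjusted p = 0.129). Without that replicate 5, Psma7 was called lower without EV (adjusted p = 0.0407).

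Psma1, Psma2 and Psma6 were not called against non-cultured cells, with differences between log2 -0.31 and -0.01. For Psma2 the 3 non-cultured replicates 1 to 3 stood at 9.04, 8.89 and 8.72, and replicates 4 and 5 at 8.43 and 8.26, inside the range of the cultured arrays (8.08 to 8.52). With EV its adjusted p moved to 0.047 when non-cultured replicate 5 alone was left out.

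Psma5 is dim, with array values of 3.60 to 4.82, among the dimmest 40% of genes. Psma8, known as the testis form of the alpha subunit that Psma7 encodes, had 5.04 to 5.73 with EV, 5.61 to 6.25 without EV and 4.91 to 5.89 in the non-cultured group. Its difference without EV was log2 0.59 (SE 0.20, limma adjusted p = 0.0587), not called. Leaving out replicate 3 with EV, replicate 1 without EV, or replicate 4 or 5 of the non-cultured cells each brought it under the threshold (adjusted p between 0.0208 and 0.0473).

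The cutting subunits of the beta ring include Psmb5, with chymotrypsin-like activity, Psmb6, with caspase-like activity, and Psmb7, with trypsin-like activity. The last showed the smallest adjusted p among all members without EV. Its log2 signals were 8.59, 8.28, 8.53, 8.32 and 8.44 with EV, 8.49, 8.35, 8.43, 8.34 and 8.21 without EV, and 8.96, 8.98, 8.98, 9.07 and 8.86 in non-cultured cells. No cultured array reached the lowest non-cultured one. Psmb7 fell by 0.54 on the log2 scale with EV (SE 0.08, limma adjusted p = 0.000336) and by 0.61 without EV (SE 0.08, adjusted p = 0.000106), which is 1.45-fold and 1.52-fold.

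Psmb6 had 7.37, 7.37, 7.07, 7.53 and 7.06 with EV, 7.40, 7.94, 7.45, 7.23 and 7.67 without EV, and 8.28, 8.26, 8.03, 8.04 and 7.76 in non-cultured cells. The arrays with EV lay below every non-cultured array, whereas replicate 2 without EV lay above the lowest of them. It differed by log2 -0.80 with EV (SE 0.14, limma adjusted p = 0.00108) and -0.54 without EV (SE 0.14, adjusted p = 0.0177). The call without EV was lost without replicate 4 of that group (adjusted p = 0.0515) and without non-cultured replicate 1 (adjusted p = 0.0509).

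Psmb5 was not called, with 8.79 to 9.12 with EV, 8.93 to 9.20 without EV and 8.62 to 9.23 in the non-cultured group. The 3 groups overlapped, and the difference was log2 0.04 with EV (SE 0.11, limma adjusted p = 0.881) and 0.22 without EV (SE 0.11, adjusted p = 0.244).

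The promoters of the cutting subunits Psmb5 and Psmb6 and of the inducible subunit Psmb8 are shown because Psmb6 and, with EV, Psmb8 were called lower and Psmb5 was not, and each of the 3 holds a motif of a factor known to act on proteasome genes. They are RefSeq windows of assembly GRCm38.p6 that run from 250 bases before the start of the gene to 50 after it, written 5′ to 3′ along the gene, at chr14:54617946-54618245 on the minus strand for Psmb5, chr11:70525107-70525406 on the plus strand for Psmb6 and chr17:34197945-34198244 on the plus strand for Psmb8. Capitals mark the antioxidant response element core TGACNNNGC in Psmb5 and Psmb6, bound by NRF factors, and the GAS core TTCNNNGAA in Psmb8, bound by STAT factors.
Psmb5: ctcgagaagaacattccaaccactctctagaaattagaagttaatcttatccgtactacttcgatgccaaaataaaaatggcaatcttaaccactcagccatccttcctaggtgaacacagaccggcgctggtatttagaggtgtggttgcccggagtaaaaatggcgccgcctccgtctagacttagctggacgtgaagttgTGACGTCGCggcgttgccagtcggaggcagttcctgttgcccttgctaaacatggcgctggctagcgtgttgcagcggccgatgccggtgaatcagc
Psmb6: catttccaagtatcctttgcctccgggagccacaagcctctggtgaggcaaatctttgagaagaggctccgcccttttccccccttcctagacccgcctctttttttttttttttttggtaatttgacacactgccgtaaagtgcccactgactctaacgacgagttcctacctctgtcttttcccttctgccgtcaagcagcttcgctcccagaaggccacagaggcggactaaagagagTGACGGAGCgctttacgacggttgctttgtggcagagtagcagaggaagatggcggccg
Psmb8: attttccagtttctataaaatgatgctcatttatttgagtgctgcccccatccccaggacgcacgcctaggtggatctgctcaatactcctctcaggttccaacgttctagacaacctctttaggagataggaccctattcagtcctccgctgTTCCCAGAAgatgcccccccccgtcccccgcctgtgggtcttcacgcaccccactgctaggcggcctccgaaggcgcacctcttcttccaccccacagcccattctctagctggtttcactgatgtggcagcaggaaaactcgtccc

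The antioxidant response element core begins 47 bases before the start in Psmb5 and 9 before it in Psmb6, and the GAS core 97 before it in Psmb8. Both strands were searched. Of the 47 members, 39 have a promoter entry, and Psma8, Psmb1, Psmb2, Psmb7, Psmc3, Psmd3, Psmd7 and Psmg2 are named only. The antioxidant response element core was found in 6 of the 39 genes (15.4%, against 14% of 27025 genes): Psmb5, Psmb6, Psmc6, Psmd9, Psmd12 and Psme4. The CCAAT box, the letters CCAAT bound by NF-Y, was found in 14 of 39 (35.9%, against 41.1%), and the GAS core in 3 of 39 (7.69%, against 9.55%): Psmb8, Psmd2 and Psmg1. No member promoter held more than 1 of the 3 motifs, so matches of different motifs did not overlap. Of these 39 genes, 9 were called lower without EV: 2 held the antioxidant response element core, 4 the CCAAT box and 0 the GAS core. Of the 29 not called without EV, these numbers were 4, 10 and 3. These matches are letters in a window and are given as a description.

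The remaining constitutive beta subunits are structural. Psmb2 had 9.09, 8.99, 8.63, 8.59 and 8.73 with EV, 8.66, 9.22, 9.13, 8.95 and 9.02 without EV, and 9.62, 9.35, 9.79, 9.61 and 9.31 in non-cultured cells. All cultured arrays lay below all non-cultured ones. The fitted change was log2 -0.73 with EV (SE 0.13, limma adjusted p = 0.0012) and -0.54 without EV (SE 0.13, adjusted p = 0.0112). Psmb1, Psmb3 and Psmb4 were not called in either culture, with differences between log2 -0.30 and 0.03. In all, 3 of the 7 constitutive beta genes were called lower in each culture and 0 higher, with medians of log2 -0.22 with EV and -0.30 without EV. Among all genes, 7.85% were called lower with EV and 6.88% without EV, and in a set of 7 a single gene moves the share much.

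The inducible cutting subunits Psmb8, Psmb9 and Psmb10 take the places of Psmb5, Psmb6 and Psmb7 in the immunoproteasome, and Psmb11 does so for Psmb5 in the thymus cortex. With EV, 3 of these 4 genes were called lower against non-cultured cells, and without EV 1 was. The share of all genes called lower was 7.85% with EV and 6.88% without EV, and 4 genes make a very small set. Psmb9 had 9.0, 8.57, 8.62, 8.99 and 8.44 with EV, 8.59, 8.97, 8.99, 9.15 and 8.48 without EV, and 9.32, 9.11, 9.26, 9.61 and 9.38 in non-cultured cells. The arrays with EV lay below all non-cultured ones, and replicate 4 without EV lay just above the lowest non-cultured array. The difference was log2 -0.61 with EV (SE 0.15, limma adjusted p = 0.0101) and -0.50 without EV (SE 0.15, adjusted p = 0.0339). The call without EV was lost when replicate 1 or 5 of that group, or replicate 1, 3, 4 or 5 of the non-cultured cells, was left out (adjusted p between 0.0519 and 0.0926), and after quantile normalization (adjusted p = 0.101).

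Psmb10 had 6.95, 7.32, 7.56, 7.39 and 7.32 with EV, 7.31, 7.70, 7.64, 7.56 and 7.55 without EV, and 7.94, 7.84, 7.69, 7.89 and 7.68 in non-cultured cells. With EV every array lay below the non-cultured range. It differed by log2 -0.50 with EV (SE 0.11, limma adjusted p = 0.00556), and -0.26 without EV (SE 0.11, adjusted p = 0.156), not called. Psmb8 ran from 7.45 to 7.60 with EV and from 7.31 to 7.78 without EV, against 7.66 to 8.09 in non-cultured cells. It differed by log2 -0.38 with EV (SE 0.10, limma adjusted p = 0.0198) and by -0.25 without EV (SE 0.10, adjusted p = 0.135, not called). The call of Psmb8 with EV was lost without non-cultured replicate 1 (adjusted p = 0.0583) or 2 (adjusted p = 0.0513) and after quantile normalization (adjusted p = 0.115). Psmb11 was dim in every group, at 3.47 to 4.2, and not called.

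The balance of inducible to constitutive subunit was read as the log2 difference of the pair within an array, less its mean in non-cultured cells. For Psmb8 over Psmb5 it was -0.36, -0.56, -0.38, -0.33 and -0.43 with EV, -0.45, -0.48, -0.28, -0.28 and -0.85 without EV, and 0.26, 0.23, -0.14, -0.60 and 0.25 in non-cultured cells. Non-cultured replicate 4, at -0.60, lay among the cultured arrays, and the other 4 lay above them all. For Psmb9 over Psmb6 the mean was 0.18 ± 0.16 with EV, 0.04 ± 0.44 without EV and 0 ± 0.33 in the non-cultured group (SD, n = 5 each), with overlapping arrays. For Psmb10 over Psmb7 it was 0.04 ± 0.30 with EV, 0.35 ± 0.22 without EV and 0 ± 0.09 in the non-cultured group, again overlapping. These balances were not tested.

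**Figure D2:**
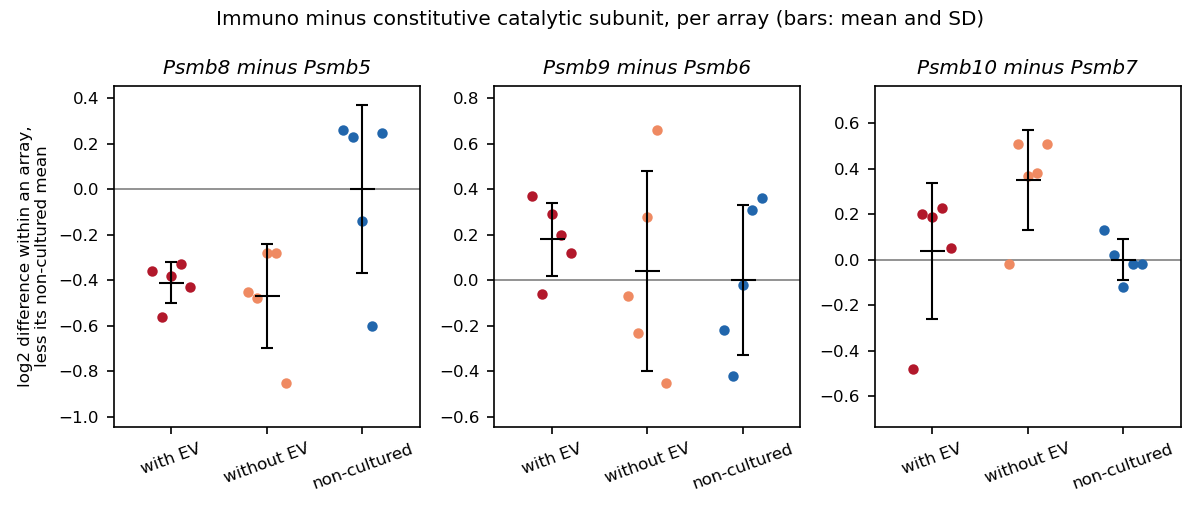
Log2 difference between the inducible and the constitutive cutting subunit of each pair within an array, less its mean over the non-cultured arrays (grey line at 0), for the 5 arrays of each group, with mean and SD. Psmb8 over Psmb5 averaged -0.41 with EV and -0.47 without EV, where non-cultured replicate 4 lies among the cultured arrays, and the groups overlap in the other 2 pairs too.

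The 19S particle sits on the barrel, and its base holds a ring of 6 ATPases that unfold the substrate. Of these 6, 2 were called lower in each culture and 0 higher, where 7.85% of all genes were called lower with EV and 6.88% without EV. Psmc6 had 7.42, 7.84, 7.67, 7.96 and 7.54 with EV, 7.81, 7.79, 8.13, 7.83 and 8.13 without EV, and 8.52, 8.44, 8.78, 8.58 and 8.28 in non-cultured cells. All cultured arrays lay below all non-cultured ones. It had the smallest adjusted p among all members with EV, and the difference was log2 -0.83 with EV (SE 0.12, limma adjusted p = 0.000201) and -0.58 without EV (SE 0.12, adjusted p = 0.00392).

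Psmc4 had 7.55, 7.46, 7.41, 7.51 and 7.31 with EV, 6.63, 7.71, 7.41, 6.98 and 7.60 without EV, and 8.08, 8.30, 7.79, 7.52 and 7.88 in non-cultured cells. Its arrays without EV were spread widely (SD 0.45, against 0.09 with EV), and both cultures overlapped the non-cultured range. It was called without EV (log2 -0.65, SE 0.18, limma adjusted p = 0.0274) and not with EV (log2 -0.46, SE 0.18, adjusted p = 0.115). The call was lost without replicate 1 or 4 of the cells without EV and without replicate 1 or 2 of the non-cultured cells (adjusted p between 0.0595 and 0.076). With a spread estimated from only the 2 groups in question it was lost without EV (adjusted p = 0.0666) and gained with EV (adjusted p = 0.0408).

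Psmc3 ran from 7.47 to 7.68 with EV and from 7.64 to 8.11 without EV, against 7.87 to 8.09 in non-cultured cells. It was called with EV (log2 -0.35, SE 0.09, limma adjusted p = 0.0198), a call lost without replicate 4 of that group (adjusted p = 0.0548) and after quantile normalization (adjusted p = 0.101). Psmc1, Psmc2 and Psmc5 were not called in either culture (log2 between -0.23 and 0.09). For Psmc5, replicate 4 with EV stood at 9.14 and the other 4 at 8.53 to 8.64, and without it the difference with EV was log2 -0.34 (adjusted p = 0.026).

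Psmd1 and Psmd2 are the large scaffold subunits of the base. Psmd1 had 7.61, 7.65, 7.71, 7.71 and 7.66 with EV, 7.63, 7.72, 7.71, 7.89 and 7.89 without EV, and 8.30, 8.31, 8.29, 7.91 and 7.87 in non-cultured cells. The non-cultured replicates 4 and 5 lay well below replicates 1 to 3, and replicate 5 reached the highest arrays without EV. The fitted change was log2 -0.47 with EV (SE 0.10, limma adjusted p = 0.00456) and -0.37 without EV (SE 0.10, adjusted p = 0.022). The call without EV was lost without replicate 1 of that group or without non-cultured replicate 1, 2 or 3 (adjusted p between 0.0547 and 0.0623), and with the spread of the 2 groups alone (adjusted p = 0.0511). Without the non-cultured replicates 4 and 5 both calls held, and over all alternatives the largest falls were log2 -0.63 with EV and -0.53 without EV. Psmd2 differed by log2 -0.06 with EV and by 0.00 without EV.

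The lid removes ubiquitin chains through Psmd14, a metalloprotease that works as a pair with its inactive relative Psmd7. Psmd14 was called lower and Psmd7 higher in both cultures. Psmd14 had 7.16, 7.31, 7.36, 7.68 and 7.37 with EV, 7.33, 7.56, 7.47, 7.48 and 7.83 without EV, and 8.29, 7.96, 8.05, 7.86 and 7.81 in non-cultured cells. Only replicate 5 without EV reached the non-cultured range. The difference was log2 -0.62 with EV (SE 0.12, limma adjusted p = 0.00207) and -0.46 without EV (SE 0.12, adjusted p = 0.0159).

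Psmd7 had 9.10, 8.94, 8.99, 8.97 and 9.17 with EV, 8.97, 9.24, 9.61, 9.02 and 9.37 without EV, and 8.52, 8.49, 8.49, 8.95 and 8.61 in non-cultured cells. Every array without EV lay above the non-cultured range, and non-cultured replicate 4, at 8.95, reached the lowest array with EV. Psmd7 was called higher without EV (log2 0.63, SE 0.12, limma adjusted p = 0.00233) and with EV (log2 0.42, SE 0.12, adjusted p = 0.0315). The call with EV was lost without replicate 1, 3 or 5 of that group or without non-cultured replicate 1, 2, 3 or 5 (adjusted p between 0.0501 and 0.0759).

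Psmd8, another lid subunit, had 8.13 to 8.84 with EV, 8.71 to 9.07 without EV and 8.96 to 9.43 in the non-cultured group. It was called lower with EV, where no array reached the non-cultured range (log2 -0.62, SE 0.13, limma adjusted p = 0.00442), and not without EV (log2 -0.24, SE 0.13, adjusted p = 0.309). Psmd12 lay below every non-cultured array in all 5 arrays without EV (8.14 to 8.34, against 8.39 to 8.80), with log2 -0.30 (SE 0.10, adjusted p = 0.0714), and was not called. The remaining lid genes Psmd3, Psmd6, Psmd11 and Psmd13 were not called in either culture. Psmd6 showed the same split as Psmd1, with 8.33, 8.30 and 8.32 in non-cultured replicates 1 to 3 and 7.84 and 7.74 in replicates 4 and 5.

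Psmd4, the ubiquitin receptor of the particle, stood at 7.61 to 8.07 with EV, 7.88 to 8.22 without EV and 7.55 to 8.06 in the non-cultured group. It differed by log2 0.27 without EV (SE 0.11, limma adjusted p = 0.13) and by 0.01 with EV. Over the 17 genes of the 19S particle, 5 were called lower and 1 higher with EV, and 4 lower and 1 higher without EV. These are 35.3% and 29.4% of the 17, where 14.1% and 13.6% of all genes were called in either direction. The medians were log2 -0.23 with EV and -0.15 without EV.

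**Figure D3:**
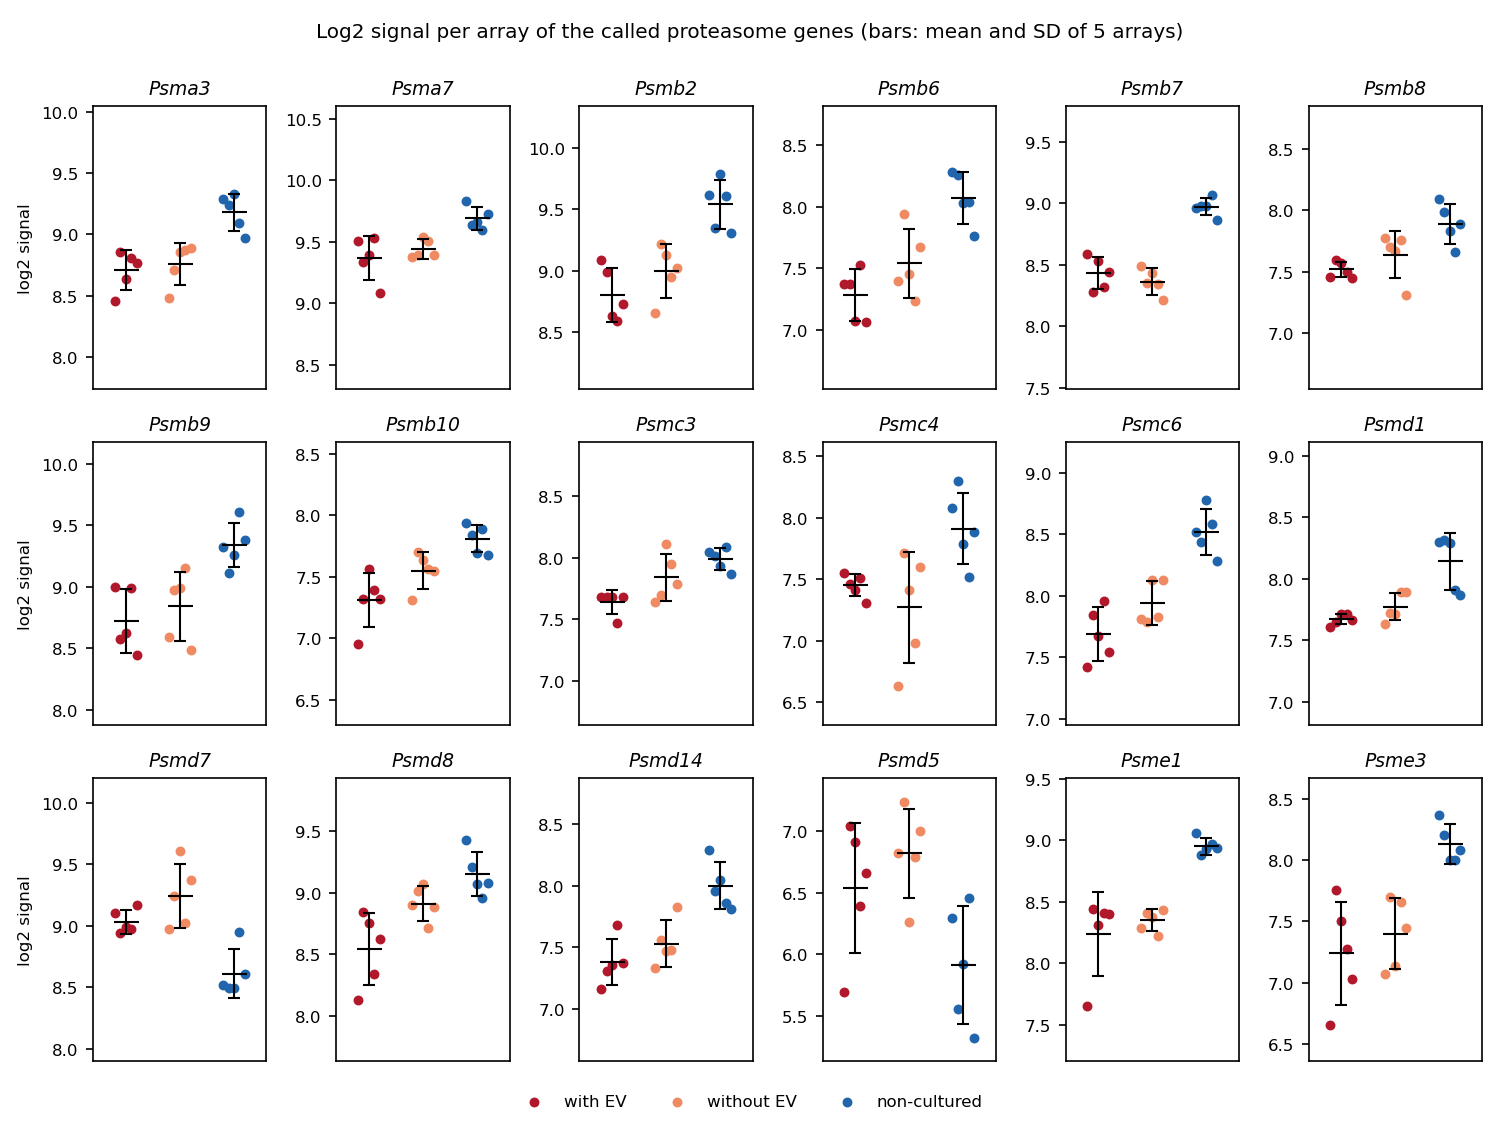
Log2 signal in each of the 5 arrays of each group for the 18 proteasome genes called in at least 1 comparison with non-cultured cells, with mean and SD, on axes of equal span. Psma3, Psma7, Psmb2, Psmb7, Psmc6, Psme1 and Psme3 show all 10 cultured arrays below the 5 non-cultured ones, and Psmd7 and Psmd5 are the 2 genes called higher.

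The activators dock on the barrel in place of the 19S particle. Psme1 forms the interferon-inducible activator PA28 together with Psme2, Psme3 forms a related nuclear ring on its own, and Psme4 is a large single-chain cap. Psme1 had 7.65, 8.44, 8.31, 8.41 and 8.40 with EV, 8.29, 8.41, 8.38, 8.22 and 8.43 without EV, and 9.06, 8.88, 8.93, 8.97 and 8.94 in non-cultured cells. All 10 cultured arrays lay below the non-cultured ones, replicate 1 with EV the farthest. Psme1 fell by 0.71 on the log2 scale with EV (SE 0.13, limma adjusted p = 0.00112) and by 0.61 without EV (SE 0.13, adjusted p = 0.00378), and both calls held in each fit that left out 1 array.

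Psme3 had 6.66, 7.76, 7.50, 7.28 and 7.03 with EV, 7.07, 7.70, 7.14, 7.66 and 7.45 without EV, and 8.37, 8.20, 8.0, 8.0 and 8.08 in non-cultured cells. It had the largest fall of any member, and no cultured array reached 8.0. It differed by log2 -0.88 with EV (SE 0.18, limma adjusted p = 0.00316) and -0.72 without EV (SE 0.18, adjusted p = 0.0128), which is 1.85-fold and 1.65-fold. Psme2 was not called (log2 -0.12 with EV and -0.08 without EV, SE 0.19 each), but a near-identical gene copy can share its probes, so its value is uncertain. Psme4 (log2 0.08 with EV and 0.05 without EV) and the inhibitor Psmf1 (-0.06 and -0.07 in the same order) were not called.

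The promoter of Psme1 is shown with that of Psmd5 because these genes had the smallest adjusted p without EV against non-cultured cells, lower and higher, among members with an entry. They are RefSeq windows of GRCm38.p6 of the same length as above, 5′ to 3′ along the gene, at chr14:55578244-55578543 on the plus strand for Psme1 and chr2:34870913-34871212 on the minus strand for Psmd5. The letters of the 3 motifs searched do not occur in either window, so no base is in capitals.
Psme1: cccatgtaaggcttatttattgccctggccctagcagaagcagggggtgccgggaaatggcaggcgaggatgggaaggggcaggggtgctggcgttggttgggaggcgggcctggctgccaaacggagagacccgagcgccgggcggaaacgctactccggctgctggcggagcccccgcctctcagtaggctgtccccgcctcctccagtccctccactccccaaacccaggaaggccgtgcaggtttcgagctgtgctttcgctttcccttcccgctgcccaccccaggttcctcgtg
Psmd5: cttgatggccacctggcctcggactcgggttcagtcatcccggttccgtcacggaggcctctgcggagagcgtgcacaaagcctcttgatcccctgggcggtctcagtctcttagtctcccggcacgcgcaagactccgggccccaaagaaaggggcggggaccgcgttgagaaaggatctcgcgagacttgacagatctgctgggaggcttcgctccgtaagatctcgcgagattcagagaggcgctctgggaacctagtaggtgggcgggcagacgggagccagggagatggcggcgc

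Of the assembly factors, Psmd5 alone was called, as higher in cells without EV. Psmd5, Psmd9 and Psmd10 escort the ATPases while the base is built. Psmd5 had 5.69, 7.04, 6.91, 6.39 and 6.66 with EV, 6.82, 7.24, 6.26, 6.79 and 7.0 without EV, and 6.29, 5.55, 5.92, 6.46 and 5.32 in non-cultured cells. Both cultures overlapped the non-cultured range. It was called higher without EV (log2 0.91, SE 0.26, limma adjusted p = 0.0296) and not with EV (log2 0.63, SE 0.26, adjusted p = 0.139). The call was lost without replicate 1, 2, 4 or 5 of the cells without EV and without non-cultured replicate 2, 3 or 5 (adjusted p between 0.0524 and 0.0783). With EV, leaving out replicate 1 of that group gave log2 0.84 (adjusted p = 0.0283).

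Psmd9 and Psmd10 were not called. Psmd10 had the largest SD of all members in both cultures, with 6.29 to 7.81 with EV (SD 0.76), 6.33 to 7.74 without EV (SD 0.51) and 6.26 to 7.33 in non-cultured cells (SD 0.47). The chaperones of the core, Psmg1 to Psmg4, pair the alpha subunits into rings, and none of the 4 was called in any comparison. Their differences ran from log2 -0.35 (Psmg4) to 0.14 (Psmg2) without EV, and from -0.21 (Psmg4) to 0.37 (Psmg3) with EV.

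Averaged by particle, the mean log2 difference of the 18 core genes from their non-cultured mean was -0.30, -0.18, -0.30, -0.17 and -0.35 with EV, -0.20, -0.10, -0.17, -0.22 and -0.22 without EV, and 0.07, -0.02, 0.02, 0.01 and -0.09 in non-cultured cells. All 10 cultured arrays lay below the 5 non-cultured ones, but barely: replicate 2 without EV was at -0.10 and non-cultured replicate 5 at -0.09. These are means of the deposited values and depend on the normalization. For the 19S particle the values ran from -0.32 to -0.20 with EV, from -0.31 to -0.02 without EV and from -0.13 to 0.17 in the non-cultured group, so only the arrays with EV were clear of the non-cultured range. The activators and inhibitor ran from -0.56 to -0.23 with EV, from -0.47 to -0.11 without EV and from -0.15 to 0.12 in the non-cultured group. The chaperones of the 19S base ran from -0.41 to 0.88 with EV, 0.18 to 0.65 without EV and -0.19 to 0.21 in the non-cultured group, and those of the core overlapped in all groups.

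**Figure D4:**
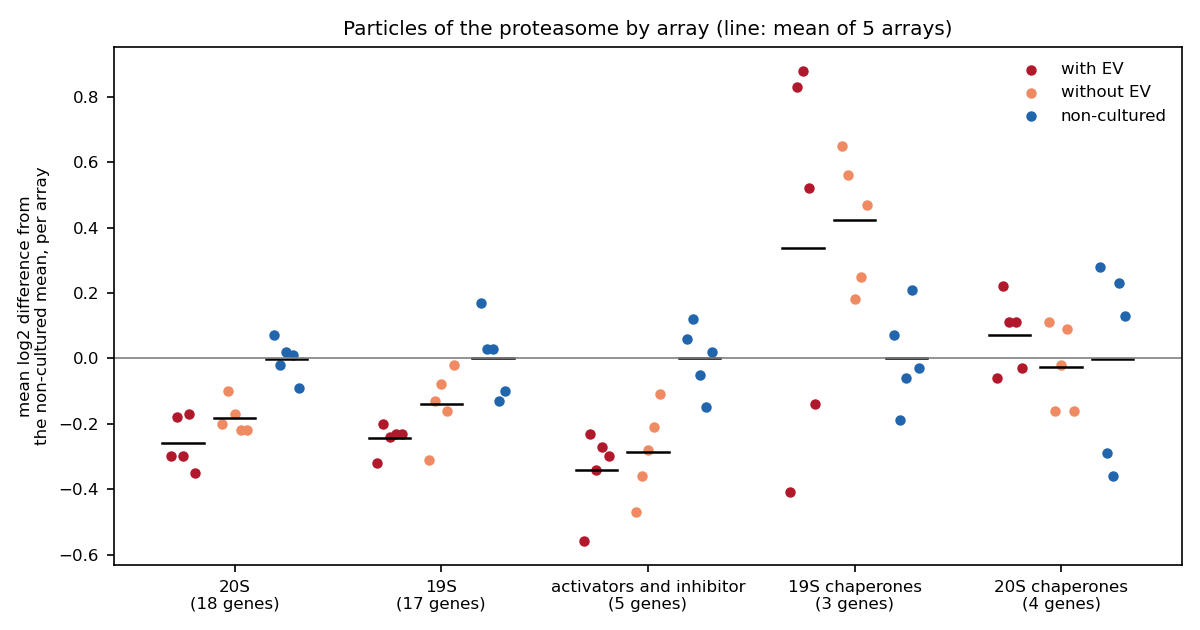
Mean log2 difference from the non-cultured mean over the genes of each particle, one point per array (5 per group), with the group mean as a line. The core genes of the cultured arrays lie between -0.35 and -0.10 and those of the non-cultured arrays between -0.09 and 0.07, so the nearest arrays almost touch. The chaperones scatter around and above 0.

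With EV against without EV, no proteasome gene was called: 0 of 47 higher and 0 lower by limma, where 0.18% of all genes were called higher and 0.018% lower. Before adjustment 5 members (10.6%) had a p under 0.05, against 6.82% of all genes. The median member differed by log2 -0.08, against 0.01 over all genes, and 31 of 47 lay below 0 (66%, against 47.2% of all genes). The number of called members was also 0 in each alternative fit.

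The 5 genes were Psma5, Psma8, Psmd8, Psmd4 and Psmb10. Psmd8, a lid subunit, had 8.13, 8.84, 8.75, 8.34 and 8.62 with EV, against 8.90, 9.01, 9.07, 8.71 and 8.88 without EV. The 2 groups overlapped in replicates 2 and 3 with EV and replicate 4 without EV, and the difference was log2 -0.38 (SE 0.13, limma adjusted p = 0.581). Psma5 had 4.18, 4.28, 4.04, 4.82 and 4.2 with EV, against 3.93, 3.94, 3.95, 3.73 and 3.86 without EV, with no overlap but at a dim level (log2 0.42, SE 0.14, adjusted p = 0.538). Psmd4 differed by log2 -0.27 (SE 0.11, adjusted p = 0.681), Psma8 by -0.47 (SE 0.20, adjusted p = 0.681) and Psmb10 by -0.24 (SE 0.11, adjusted p = 0.726).

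All 47 genes had a 95% interval within log2 -1 and 1, and 30 within -0.5 and 0.5. The lowest bound was -0.88 (Psma8) and the highest 0.73 (Psmd10). Among the cutting subunits the difference with EV against without EV was log2 -0.18 for Psmb5 (95% interval -0.42 to 0.05), -0.26 for Psmb6 (-0.56 to 0.04) and 0.07 for Psmb7 (-0.11 to 0.25). A p that misses the threshold does not show that the 2 cultures were alike. A gene called in one culture and not in the other, such as Psmd8, Psmb8, Psmb10 or Psmc4, is not thereby shown to differ between them.

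**Figure D5:**
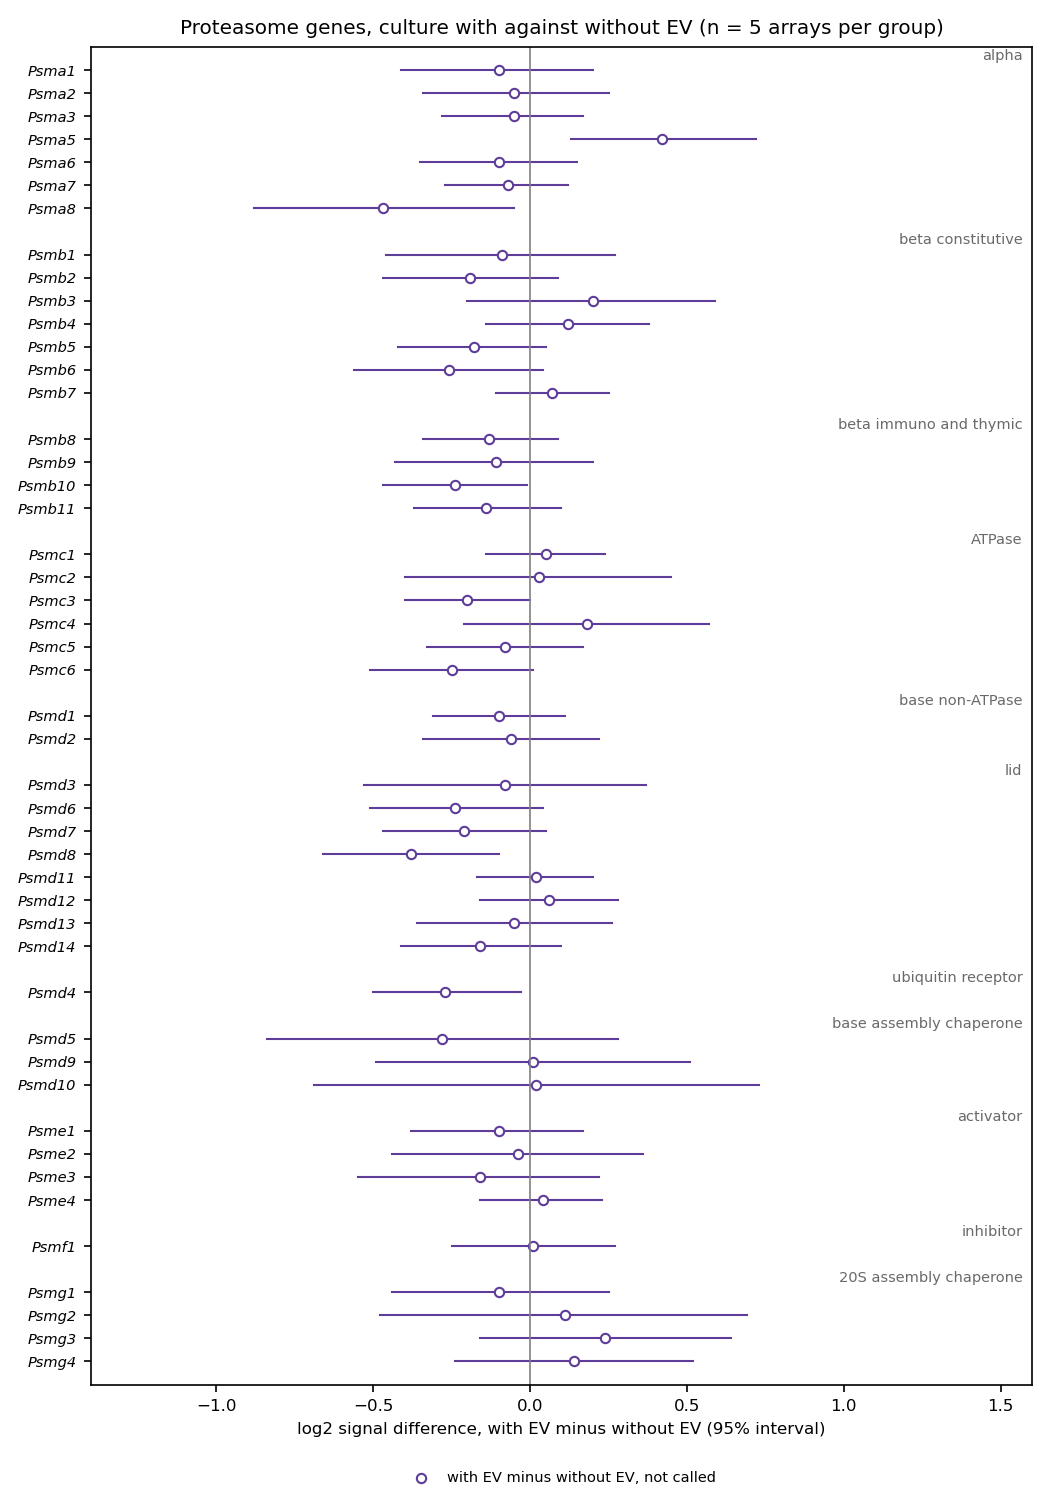
Log2 difference with EV minus without EV for the 47 proteasome genes, with 95% intervals, grouped by role. Open points were not called, which is so for all 47, and the intervals reach from -0.88 (Psma8) to 0.73 (Psmd10).

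Other genes of the ubiquitin and proteasome pathway were counted from a list of regulators, partners, shuttles and peptidases, of which 40 were measured. With EV, 10 of the 40 were called lower and 2 higher against non-cultured cells, and without EV 9 lower and 3 higher, or 30% in each case, where 14.1% of all genes were called with EV (7.85% lower) and 13.6% without EV (6.88% lower). With EV against without EV, 0 of 40 were called by limma, and 3 (Nsfl1c at log2 -0.47, Nploc4 at 0.30 and Thop1 at 0.21) had an unadjusted p under 0.05. The median of the list was log2 -0.21 with EV and -0.16 without EV against non-cultured cells, where that of all genes was 0.04 and 0.01.

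Among regulators of proteasome genes, Nfe2l2, which encodes NRF2, rose with EV (log2 0.77, SE 0.12, limma adjusted p = 0.00047) and without EV (log2 0.84, SE 0.12, adjusted p = 0.000202). Its log2 signals were 9.13 to 9.47 with EV, 9.22 to 9.52 without EV and 8.13 to 8.92 in the non-cultured group, with no overlap. Nfe2l1, whose product drives proteasome genes when the proteasome is blocked, was not called (log2 -0.21 with EV, adjusted p = 0.155, and -0.13 without EV, adjusted p = 0.476). Nfyb, a subunit of NF-Y, fell with EV (log2 -1.15, SE 0.20, adjusted p = 0.000826) and without EV (log2 -1.02, SE 0.20, adjusted p = 0.00227). The other 2 of the pathway list called higher without EV were Stat3 (log2 0.34, adjusted p = 0.00723) and Tap2 (log2 0.65, adjusted p = 0.00833). Tap2 encodes a peptide transporter subunit and is listed as a companion of the immunoproteasome. Tap2 is named beyond the naming rule after its values were seen, while Stat3 is within that rule with EV against non-cultured cells. With EV, Stat3 was also called higher (log2 0.34, adjusted p = 0.00717).

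Among the companions of the immunoproteasome, Irf1, a transcription factor that induces its subunits, had 5.69 to 6.52 with EV and 5.88 to 6.46 without EV, against 7.07 to 7.60 in non-cultured cells. It fell by 1.13 on the log2 scale with EV (SE 0.15, limma adjusted p = 9.57e-05) and by 1.17 without EV (SE 0.15, adjusted p = 6.41e-05). Erap1, which trims peptides for class I molecules, fell by 0.85 with EV (adjusted p = 0.000199) and by 0.62 without EV (adjusted p = 0.00293). Nlrc5, Tap1 and B2m, also of class I presentation, were not called in either culture. Of the 7 companions measured, 2 were called lower and 1 higher (Tap2) without EV, and 2 lower and 0 higher with EV. The shares of all genes called are given above.

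Rad23b, a shuttle that carries ubiquitylated proteins to the proteasome, fell by 0.51 on the log2 scale with EV (SE 0.10, limma adjusted p = 0.00288) and by 0.55 without EV (SE 0.10, adjusted p = 0.00171). Zfand2a, a stress-inducible proteasome partner, fell by 0.72 with EV (adjusted p = 0.00135) and by 0.66 without EV (adjusted p = 0.00289). Of the 5 genes measured for the unfolding ATPase p97 and its cofactors, 1 was called in each culture, and not the same one. This is 20%, where 14.1% of all genes were called with EV and 13.6% without EV. Nsfl1c fell by 0.82 with EV (limma adjusted p = 0.00136) and Nploc4 by 0.46 without EV (adjusted p = 0.00573). The peptidase Lap3 fell by 0.53 without EV (adjusted p = 0.00405). Pomp, the maturation factor of the core, Sem1, a small 19S subunit, and Vcp, p97 itself, were not called in either culture.

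The 2 genes that match only by symbol were not called. Psmc3ip had 5.59 to 6.49 with EV, 5.74 to 6.11 without EV and 6.29 to 6.66 in the non-cultured group, with log2 -0.53 without EV (SE 0.17, limma adjusted p = 0.0502). Psme3ip1, which also stands in the pathway list, differed by log2 0.22 with EV (adjusted p = 0.568) and 0.04 without EV (adjusted p = 0.957).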

How the data were processed

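The table holds 41345 probe sets and 15 arrays. The authors' values were taken as log2 because they span 1.40 to 13.0, since no base is stated. The submitters' processing notes name MAS5 alone, and how background was corrected and arrays normalized is not given there or in the labels. The deposited log2 values were used unchanged, without a background filter. Genes were named from the platform annotation (23521 probe sets with 1 symbol), keeping the probe set with the highest mean over all arrays, which left 22180 genes.

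A group-means model over all 15 arrays was fitted by lmFit and eBayes of limma 3.58.1 under R 4.3.3 (12 residual and 3.66 prior degrees of freedom, two-sided, tested on simulated data). The number of arrays limits the precision, and the median SE of a difference was log2 0.13. Labels give no batch, and no pair of the 105 array pairs was identical.

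All proteasome genes could be named, and of the pathway list up to 8 with the smallest adjusted p per comparison; other pathway genes were named after their values were seen. The members and lists were chosen with earlier results of these data known. Some genes of the pathway list were not analysed here. Alternatives were quantile normalization, median centring, no dim genes, mean of probe sets, a 2-group spread, a replicate block, array weights, and 1 array left out. Leaving out non-cultured replicates 4 and 5, and the alternatives for the pathway list, were chosen after seeing the data.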

Additional observations from a re-analysis of the deposited data

Results flagged for a closer look

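In 12 of 141 groups of 5 arrays (47 genes in 3 groups), 1 array stood far from the other 4 by the Dixon test at 5%, where chance alone flags about 1 in 20. Among cells with EV, replicate 4 was high for Psmb3 (5.57, others 5.17 to 5.24) and Psmc5 (9.14, others 8.53 to 8.64) and low for Psmc3 (7.47, others all 7.68). Replicate 1 with EV, the array with the lowest correlation to its group, was high for Psmd11 (8.52, others 8.34 to 8.39) and low for Psme1 (7.65, others 8.31 to 8.44). Among cells without EV, the low arrays were replicate 4 for Psmb4 (8.56, others 8.89 to 8.93), replicate 5 for Psmb8 (7.31, others 7.67 to 7.78), replicate 1 for Psmc1 (8.95, others 9.12 to 9.16), and replicate 2 for Psmc5 (8.52, others 8.79 to 8.88) and Psmd4 (7.88, others 8.13 to 8.22). Among non-cultured cells, replicate 4 was high for Psmd7 (8.95, others 8.49 to 8.61) and replicate 2 low for Psmg3 (5.46, others 6.30 to 6.49). The outlying array of Psme1 lies on the far side of its group from the non-cultured cells, and Psme1 was called with and without it.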

How the results depend on the processing

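No member called against non-cultured cells changed its direction in any alternative. Counts of members called higher were the least stable. Without EV against non-cultured cells, 2 were called, 4 after quantile normalization (Psmd4 and Psma8 joined), and 1 to 3 when 1 array was left out. With EV, 1 was called, 0 with a replicate block, and 0 to 1 when 1 array was left out. Members called lower without EV numbered 7 to 12 when 1 array was left out, with 7 without non-cultured replicate 1, against 11 as reported. With EV they numbered 13 to 16, against 15 as reported. The replicate block also ended the calls of Psmd1 (adjusted p = 0.0538) and Psmd5 (adjusted p = 0.0608) without EV and of Psmd7 (adjusted p = 0.0577) with EV, and added Psma8 and Psmd12 without EV. Over all genes, deviations of same-numbered arrays correlated at 0.01 on average over 15 pairs, against 0 over 60 pairs of different number. The highest single correlation was 0.19 for the same number and 0.11 for different numbers. Deviations were taken from the group means, which ties the 2 averages together, so the second is no independent reference for the first. Of 15 arrays, 5 correlated best with their own number, a count for which no chance level was worked out. The mean of the genes listed as mature myeloid was nevertheless lowest in replicates 4 and 5 of all 3 groups. Whether arrays of the same number were prepared together is not stated in the labels and was not tested. Quantile normalization turned the split of all called genes with EV to 1691 higher and 1470 lower, against 1394 and 1741 as deposited, and 12 members were then called lower. The cause was not tested. Signal over background is not known, so Psma5 and Psmb11, the dimmest members, may not be told from background, and the smallest difference called among members was log2 -0.33 (Psma7 with EV).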
